A study of Mus musculus with 8 samples.

Results

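The genes described here encode the machinery that copies DNA, 37 genes listed by name and role out of the 52636 genes of each count table. They fall by role into 8 licensing genes, 6 genes of helicase activation, 6 of the sliding clamp and its loader, 6 of the polymerases and primase, 4 of single-strand binding, flap cutting and ligation, 5 of nucleotide supply and 2 of chromatin copying. All 37 matched 1 gene identifier each, and 36 had enough reads to be tested. They were measured by bulk RNA-seq of liver from 8 male wild-type C57BL/6J mice, all fed the high-fat, high-cholesterol, high-fructose diet (MASH diet) for 24 weeks from 8 weeks of age. At 7 weeks of age 4 mice had received AAV8-TBG-GFP (AAV8-GFP, animals 303, 311, 314 and 315) and 4 had received AAV8-TBG-AGXT (AAV8-AGXT, animals 308, 309, 316 and 319). AAV8 is a viral vector with affinity for the liver, the TBG promoter restricts the transgene to hepatocytes, and AGXT is the enzyme that turns glyoxylate into glycine. Both groups carry the vector and eat the same diet, so the comparison is of AGXT with GFP in a diseased liver, and no mouse on a control diet is part of it.

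Replication starts when the licensing proteins Cdc6 and Cdt1 load a ring of Mcm2 to Mcm7 onto DNA in G1 phase. In S phase Cdc45, the 4 GINS proteins and Mcm10 turn that ring into an active helicase, RFC loads the PCNA clamp, and polymerase alpha with primase, polymerase delta and polymerase epsilon extend the new strands. Most hepatocytes of an adult liver are quiescent, and injury and regeneration bring some of them, together with immune and stromal cells, back into the cycle. Transcription of many of these genes is driven by E2F factors when a cell passes from G1 to S phase.

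Gene counts summed to 19747909 to 28780140 read pairs per AAV8-GFP mouse and to 17095433 to 23940200 per AAV8-AGXT mouse. Levels are given as CPM, counts per 1000000 read pairs on genes after TMM scaling, and changes as log2 fold changes of AAV8-AGXT over AAV8-GFP with their standard error (SE). Calls were made where edgeR's quasi-likelihood test across 15248 genes gave an adjusted p under 0.05. The endogenous mouse Agxt row read 148, 180, 153 and 175 CPM in the AAV8-GFP mice and 405, 201, 243 and 371 CPM in the AAV8-AGXT mice (log2 fold change 0.90, SE 0.22, adjusted p = 0.0489). The transgene encodes human AGXT, and how many of its reads reached the mouse row is not known from these files. Hepatocyte markers defined the tissue, with 9 markers summing to 48636 to 59300 CPM in the AAV8-GFP livers and to 60350 to 83721 CPM in those given AAV8-AGXT.

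The replication genes did not move as a block. Of the 36 tested, 1 fell (Pold1) and 1 rose (Mcm10) in AAV8-AGXT livers, each 2.78% of the tested members. Over all genes tested, 1.9% were called lower and 2.45% called higher, so the share of members called was near the background in either direction. A lean towards lower values was present below the threshold. The mean was lower in AAV8-AGXT mice for 25 of 36 members (69.4%) against 47.7% of all genes tested, and the members' median log2 fold change was -0.16 against 0.018 over all genes. At an unadjusted p under 0.05, 8 members (22.2%) were lower against 12.6% of all genes, and 2 (5.56%) were higher against 13.5%. For 4 members every AAV8-AGXT mouse lay below every AAV8-GFP mouse (Mcm2, Mcm3, Pold1 and Lig1, 11.1% against 7.63% of all genes), and for 3 every AAV8-AGXT mouse lay above (Mcm10, Gins4 and Rpa1, 8.33% against 8.93%). With DESeq2 the calls were Lig1, Pold1 and Uhrf1 lower and Mcm10 higher, while that test called 13% of the genes it tested. Under scaling to total counts without a composition factor, the median of all genes moved to -0.22 and that of the members to -0.39. The members below in every AAV8-AGXT mouse then numbered 15 and those above 1. How many of all genes lay below or above under this scaling was not counted, so these counts have no background beside them.

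**Figure D1:**
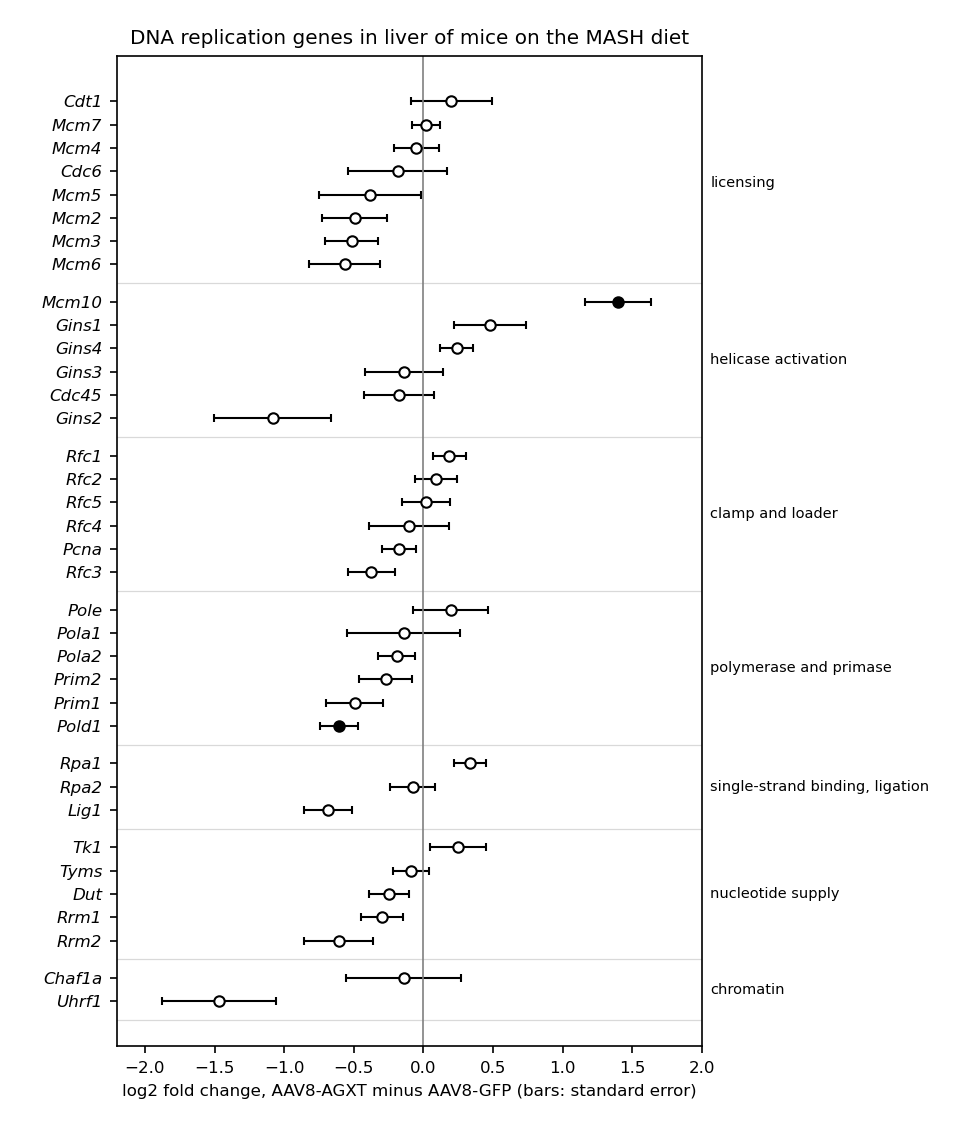
Log2 fold change of AAV8-AGXT over AAV8-GFP (x axis) for each of the 36 tested replication genes, grouped by role, with bars for 1 standard error and filled points for genes called at an adjusted p under 0.05. Mcm10 lies at 1.40 and Pold1 at -0.61 as the filled points, and 25 points lie left of 0.

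Mcm10 had the largest increase among the members. Its protein binds the loaded helicase and is needed for it to unwind DNA. It read 37.3, 50.6, 30.7 and 48.2 CPM in the AAV8-GFP mice and 113, 157, 75.9 and 93.7 CPM in the AAV8-AGXT mice. The lowest AAV8-AGXT mouse (316) stood above the highest AAV8-GFP mouse (311), and the means were 41.7 ± 9.36 and 110 ± 34.9 CPM (SD, n = 4 each). The log2 fold change was 1.40 (SE 0.23, adjusted p = 0.0278), a 2.64-fold higher mean. Per kilobase of exon, Mcm10 held place 3 of the 36 tested members in AAV8-GFP livers at 5.42 ± 1.22 CPM and place 1 in AAV8-AGXT livers at 14.3 ± 4.53 CPM. The increase was 1.15 or more on the log2 scale in every alternative run. The call was lost when AAV8-GFP mouse 303, 311 or 314 or AAV8-AGXT mouse 319 was left out (adjusted p = 0.0505, 0.113, 0.0798 and 0.0758), fits that called 193, 2, 15 and 14 genes in all.

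Mcm10 lies on the minus strand at chr2:4989714-5012791 (GRCm38), with no exon shared with another annotated gene. Its neighbours on chromosome 2, chosen after values were seen, were not called. Phyh, a peroxisomal enzyme of phytanic acid breakdown, averaged 1813 and 2579 CPM in the respective groups (log2 fold change 0.51, SE 0.15, adjusted p = 0.0767). Optn, an autophagy receptor, averaged 114 and 160 CPM (0.49, SE 0.14, adjusted p = 0.0697). Sephs1, a selenophosphate synthetase paralog, was at 0.19 (SE 0.11, adjusted p = 0.316), and Ucma was at or near 0 in every mouse. All 3 tested differences in log2 were smaller than that of Mcm10. The window from 250 bases before to 50 after the RefSeq start of Mcm10 (GRCm38.p6, chr2:5012742-5013041, minus strand) is shown because this gene moved against most of the members. Capitals mark its 3 matches to CCAAT, and none of the E2F-type words searched was complete in it. The window ends on tttggcg, with which the searched words TTTGGCGC and TTTGGCGG begin, so a word crossing its edge could not be found.

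Mcm10 promoter: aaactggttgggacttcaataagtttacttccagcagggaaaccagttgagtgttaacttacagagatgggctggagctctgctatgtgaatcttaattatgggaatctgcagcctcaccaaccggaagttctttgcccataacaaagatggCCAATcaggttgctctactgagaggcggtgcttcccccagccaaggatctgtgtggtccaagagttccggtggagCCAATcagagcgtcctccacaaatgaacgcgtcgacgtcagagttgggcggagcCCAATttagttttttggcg

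**Figure D2:**
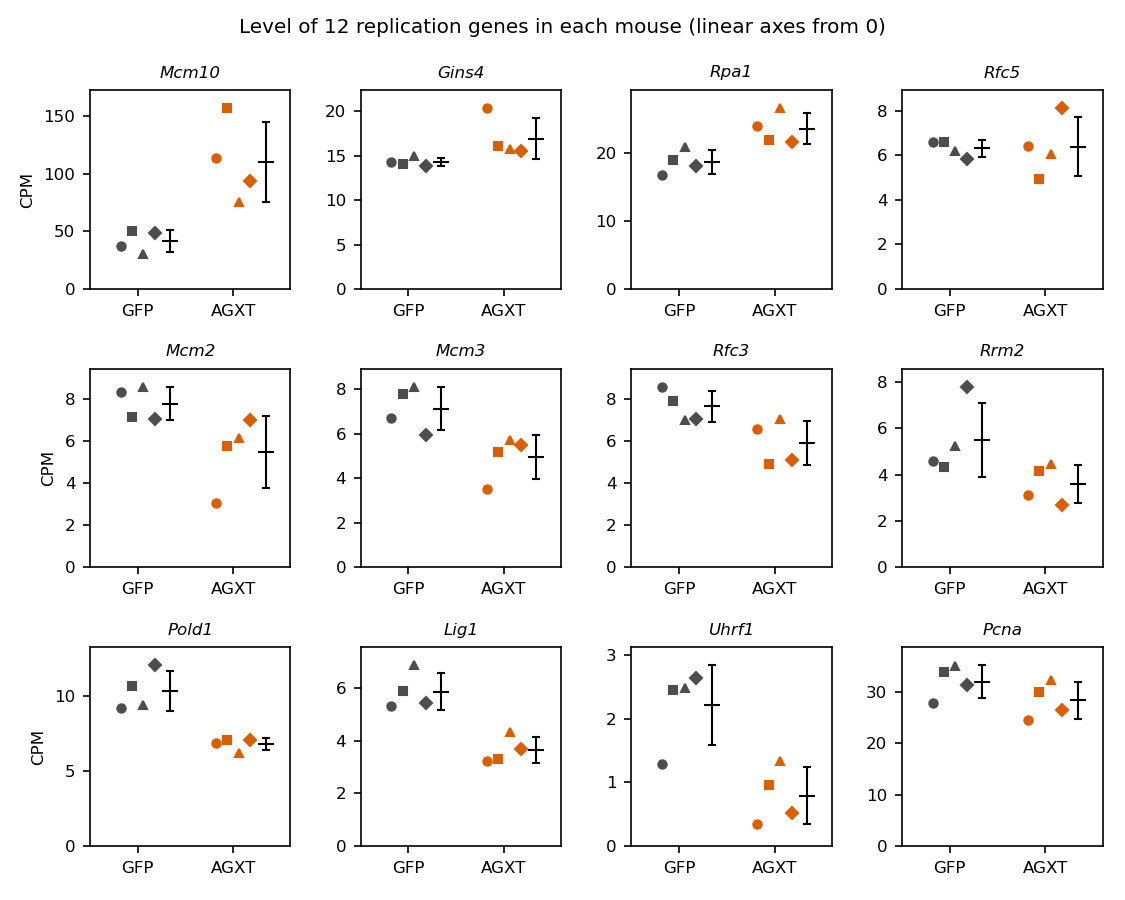
CPM of 12 replication genes in each mouse, with a separate linear y axis from 0 for each gene, 1 point per mouse and the mean with SD (n = 4) beside each group. The AAV8-AGXT points of Mcm10 all lie above the AAV8-GFP points, those of Mcm2, Mcm3, Pold1 and Lig1 all lie below, and those of Rfc5 and Pcna overlap.

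None of the other genes of helicase activation was called, and their mean differences went in both directions. Gins4, a GINS subunit, read 14.3, 14.1, 14.9 and 13.8 CPM in AAV8-GFP mice and 20.4, 16.0, 15.7 and 15.5 CPM in AAV8-AGXT mice. The groups did not overlap, and mouse 308 stood well above the other 3, but the difference did not pass the test (log2 fold change 0.24, SE 0.12, adjusted p = 0.232) and went to -0.0063 under total counts. Gins1 averaged 2.48 and 3.46 CPM (0.48, SE 0.26, adjusted p = 0.268). Gins2 went the other way, from 1.03 ± 0.212 to 0.478 ± 0.287 CPM (log2 fold change -1.08, SE 0.42, adjusted p = 0.139). Its counts ran from 2 to 34, and 67.3% of its exonic bases overlap the gene Gse1 on the other strand. Gins3 (-0.14, adjusted p = 0.786) and Cdc45, the helicase cofactor (-0.18, adjusted p = 0.696), stayed within their SE of 0.28 and 0.25.

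The licensing genes had 6 of 8 lower means and no call. Mcm3 had the smallest p of this group. It read 6.68, 7.77, 8.07 and 5.95 CPM in AAV8-GFP mice and 3.52, 5.17, 5.70 and 5.47 CPM in AAV8-AGXT mice. The groups did not overlap, with mouse 308 the lowest of all 8 (log2 fold change -0.51, SE 0.19, adjusted p = 0.127). Mcm2 read between 7.06 and 8.58 CPM in AAV8-GFP mice and 3.04, 5.77, 6.16 and 6.98 CPM in AAV8-AGXT mice, again with 308 lowest (-0.49, SE 0.23, adjusted p = 0.213). Mcm6 averaged 7.53 and 5.06 CPM (-0.57, SE 0.25, adjusted p = 0.191), and Mcm5 averaged 3.38 and 2.56 CPM (-0.38, SE 0.37, adjusted p = 0.54). Mcm4 differed little (-0.05, SE 0.16), as did Mcm7 (0.02, SE 0.10), whose sign turned with the scaling. The loaders were no clearer, with Cdc6 at -0.18 (SE 0.36) and counts of 7 to 25, and Cdt1 at 0.20 (SE 0.29).

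The Mcm proteins form the ring in equal numbers, yet their transcripts did not stand at equal CPM per kilobase. The length used was that of all annotated exons of a gene merged, which can exceed that of its main mRNA. Levels between genes therefore depend on the annotation, and its part in the differences below was not tested. In AAV8-GFP livers Mcm7 stood first at 3.98 ± 0.191 CPM per kilobase, 2.1-fold the next, Mcm3, at 1.90 ± 0.262, and these did not overlap. Mcm3 and Mcm6 overlapped, as did Mcm6 and Mcm4, and Mcm2 and Mcm5. Mcm4 at 1.34 ± 0.110 lay above Mcm2 at 1.12 ± 0.114 without overlap. Mcm7 hosts the microRNAs Mir25 and Mir93, 3.89% of its exonic bases being shared with them on the same strand, and 8.70% overlap Cops6 and Ap4m1 on the other. In AAV8-AGXT livers Mcm7 stood at 4.02 ± 0.280, 3.04-fold Mcm3, and every other neighbouring pair overlapped. The spread was wider in GINS, where Gins4 stood at 10.6 ± 0.347, Gins1 at 1.64 ± 0.319, Gins3 at 0.546 ± 0.181 and Gins2 at 0.252 ± 0.0517 CPM per kilobase in AAV8-GFP livers. That order held without overlap between neighbours in both groups, although Gins2 carries the antisense overlap given above.

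**Figure D3:**
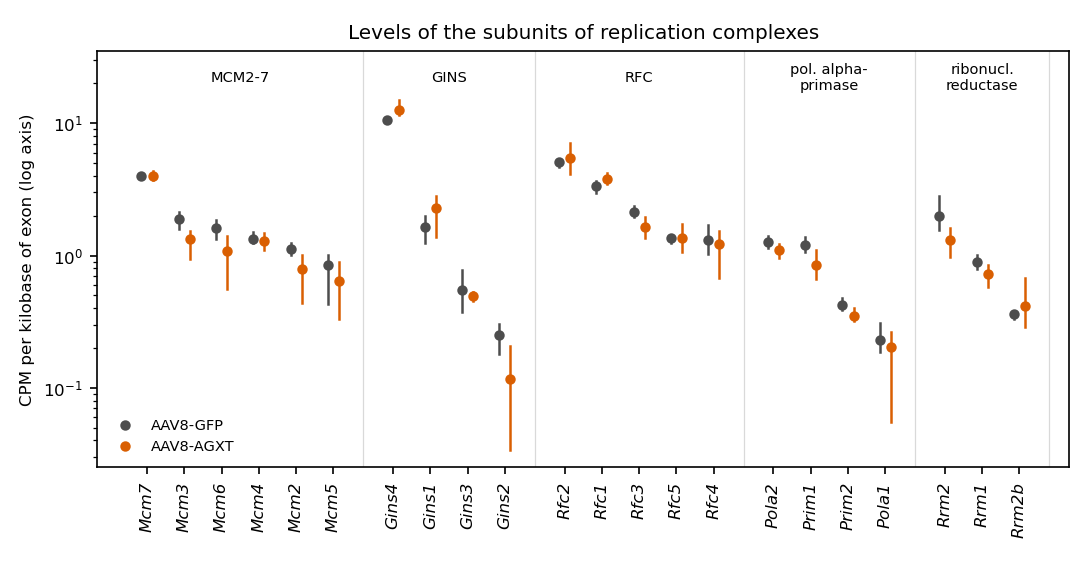
CPM per kilobase of exon (log y axis) for the subunits of 5 replication complexes in AAV8-GFP (grey) and AAV8-AGXT (orange) livers, with points at the mean and lines from the lowest to the highest of 4 mice. Mcm7 and Gins4 stand above the other members of their complexes in both groups, at 3.98 and 10.6 in AAV8-GFP livers.

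Among the clamp and its loader, none was called and 5 of 6 differed by less than 0.25 on the log2 scale. Pcna, the clamp that holds polymerases on DNA, was the member with the highest level per kilobase in AAV8-GFP livers at 13.3 ± 1.33 CPM. It read 27.7, 33.7, 35 and 31.4 CPM in AAV8-GFP mice and 24.4, 30.0, 32.3 and 26.4 CPM in AAV8-AGXT mice. The groups overlapped (log2 fold change -0.17, SE 0.12, adjusted p = 0.382). Rfc3 had the smallest p of this group, with 8.59, 7.93, 7.01 and 7.06 CPM against 6.56, 4.93, 7.04 and 5.10 CPM. Mouse 316 lay among the AAV8-GFP values and the other 3 below them (-0.37, SE 0.17, adjusted p = 0.191). Rfc5, with the largest p of all members, read 6.60, 6.61, 6.18 and 5.82 CPM against 6.42, 4.93, 6.06 and 8.12 CPM. The AAV8-AGXT mice lay on both sides of the AAV8-GFP mice (0.02, SE 0.17, adjusted p = 0.959). Rfc1, the large subunit (0.19, SE 0.12), Rfc2 (0.09, SE 0.15) and Rfc4 (-0.10, SE 0.29) did not pass either.

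Pold1, the catalytic subunit of polymerase delta, fell in AAV8-AGXT livers. It read 9.18, 10.7, 9.36 and 12 CPM in AAV8-GFP mice and 6.83, 7.03, 6.21 and 7.03 CPM in AAV8-AGXT mice. The groups did not overlap, and the AAV8-AGXT mice lay close together at 6.78 ± 0.387 against 10.3 ± 1.33 CPM (SD, n = 4 each). The log2 fold change was -0.61 (SE 0.14, adjusted p = 0.0448). Leaving out any 1 mouse ended the call, with adjusted p between 0.0512 (without AAV8-AGXT mouse 309) and 0.147 (without AAV8-GFP mouse 311), while the log2 fold change stayed between -0.67 and -0.52. The gene lies at chr7:44532746-44548849 (GRCm38, minus strand), and no exon of it is shared with another annotated gene. Its RefSeq start window (GRCm38.p6, chr7:44548766-44549065, minus strand) is shown as that of the member that fell, and the capitals mark its 1 E2F-type match, which begins 40 bases after the start and reads TTTCCCGC on the opposite strand.

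Pold1 promoter: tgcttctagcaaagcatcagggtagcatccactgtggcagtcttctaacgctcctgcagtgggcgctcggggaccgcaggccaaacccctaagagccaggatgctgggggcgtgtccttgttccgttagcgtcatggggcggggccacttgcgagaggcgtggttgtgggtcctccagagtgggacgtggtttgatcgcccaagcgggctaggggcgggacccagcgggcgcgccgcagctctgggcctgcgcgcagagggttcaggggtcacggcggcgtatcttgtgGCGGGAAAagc

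The other polymerase genes were not called. Pole, the catalytic subunit of polymerase epsilon, averaged 1.88 and 2.14 CPM (log2 fold change 0.20, SE 0.27, adjusted p = 0.682), and its sign turned under total counts. Prim1, the catalytic subunit of primase, averaged 4.62 ± 0.530 and 3.27 ± 0.775 CPM (-0.49, SE 0.21, adjusted p = 0.165), and Prim2, its partner, averaged 2.51 and 2.08 CPM (-0.27, SE 0.19). Pola1 and Pola2 of polymerase alpha differed by -0.14 (SE 0.40) and -0.19 (SE 0.13). Per kilobase, Pola1 at 0.228 ± 0.0552 CPM stood below its 3 partners, which ran from 0.423 to 1.26 in AAV8-GFP livers.

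Lig1, the ligase that seals the fragments of the lagging strand, lay just outside the threshold. It read 5.31, 5.88, 6.87 and 5.42 CPM in AAV8-GFP mice and 3.24, 3.31, 4.31 and 3.68 CPM in AAV8-AGXT mice. The groups did not overlap (log2 fold change -0.69, SE 0.17, adjusted p = 0.0531), and it was called by DESeq2 at an adjusted p of 0.00598 and in 2 of the other alternatives. Rpa1, the large subunit of the protein that coats single-stranded DNA, read 16.8, 19, 20.9 and 18.1 CPM in AAV8-GFP mice and 24.0, 21.9, 26.6 and 21.7 CPM in AAV8-AGXT mice. Every AAV8-AGXT mouse was above, without a call (0.33, SE 0.11, adjusted p = 0.103). Its partner Rpa2 differed by -0.08 (SE 0.16, adjusted p = 0.802). Fen1, the flap endonuclease, had 0 to 8 counts per mouse and fell under the filter on low counts, so it was not tested. In the annotation 84.2% of its exonic bases overlap genes on the other strand, among them Tmem258, and how read pairs in such shared stretches were assigned is not stated.

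The nucleotide supply genes held no call and 4 of 5 lower means. Rrm2, the subunit of ribonucleotide reductase that S-phase cells make, read 4.61, 4.35, 5.26 and 7.81 CPM in AAV8-GFP mice and 3.11, 4.15, 4.47 and 2.69 CPM in AAV8-AGXT mice. The groups touched, since mouse 316 lay above mouse 311 (log2 fold change -0.61, SE 0.25, adjusted p = 0.157). Rrm1, its large partner, averaged 9.83 and 7.99 CPM (-0.30, SE 0.15, adjusted p = 0.251). Dut, which removes dUTP, was at -0.25 (SE 0.15), and Tyms, which makes thymidylate, at -0.09 (SE 0.13). Tk1, the thymidine salvage kinase of S phase, averaged 11.2 ± 1.51 and 13.3 ± 3.41 CPM (0.25, SE 0.20, adjusted p = 0.458).

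The copying of chromatin was covered by Uhrf1, which reads hemimethylated DNA behind the fork, and Chaf1a, a histone chaperone subunit. Uhrf1 had the lowest log2 fold change of all members. It read 1.29, 2.45, 2.49 and 2.65 CPM in AAV8-GFP mice and 0.345, 0.961, 1.34 and 0.519 CPM in AAV8-AGXT mice. Mouse 303 lay below mouse 316, so the groups overlapped at that point (log2 fold change -1.47, SE 0.41, adjusted p = 0.0699), and DESeq2 called it at an adjusted p of 0.00959. Its counts ran from 5 to 80. Chaf1a averaged 1.21 and 1.08 CPM (-0.14, SE 0.41, adjusted p = 0.857), with 52.5% of its exonic bases overlapping Ubxn6 on the other strand.

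Of the 37 members, 30 had a RefSeq start window. At least 1 of the E2F-type words searched on both strands stood in 15 of these (50%), against 3.18% of 27025 genes with a window. Both shares count any E2F-type word searched. Those found in the members were TTTCCCGC, TTTCGCGC, TTTGGCGC and TTTGGCGG. CCAAT stood in 19 of 30 (63.3%) against 41.1%. The words overlap in some windows, and a match is only a run of letters. Of the 15 members that held an E2F-type word, 12 were lower in mean in AAV8-AGXT mice (median log2 fold change -0.19), as were 10 of the 14 tested members whose window held none (median -0.14). The stretches that follow show the word in 5 members with a lower mean (Mcm3, Mcm6, Rfc3, Lig1 and Uhrf1) and in the 3 with a higher mean (Mcm7, Cdt1 and Rpa1), none of them called. Capitals mark every complete E2F-type match inside a stretch, and CCAAT is left unmarked. The windows of Mcm3, Mcm6, Lig1 and Mcm7 hold further E2F-type matches that the stretch does not contain in full.

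Mcm3 (chr1:20820276-20820303, minus strand): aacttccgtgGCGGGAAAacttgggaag
Mcm6 (chr1:128359735-128359762, minus strand): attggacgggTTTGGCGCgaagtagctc
Rfc3 (chr5:151651201-151651228, minus strand): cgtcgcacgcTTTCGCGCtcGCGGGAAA
Lig1 (chr7:13278830-13278857, plus strand): ccgccccctcCCGCCAAAgtgcgcgcga
Uhrf1 (chr17:56304118-56304145, plus strand): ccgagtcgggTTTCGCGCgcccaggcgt
Mcm7 (chr5:138171850-138171877, minus strand): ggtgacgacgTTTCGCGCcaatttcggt
Cdt1 (chr8:122568037-122568064, plus strand): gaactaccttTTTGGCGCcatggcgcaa
Rpa1 (chr11:75348583-75348610, minus strand): ttctgtctgtCCGCCAAAggactgggcg

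These coordinates are of GRCm38.p6. Windows of Mcm10, Mcm2, Rrm2 and Pcna were among those without a complete E2F-type match.

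The lean towards lower values was uneven among the AAV8-AGXT mice. Mouse 308 had the lowest value of all 8 mice for 19 of 36 members. The median log2 deviation of the 36 members from the AAV8-GFP mean was -0.37 in mouse 308, -0.23 in 309, -0.061 in 316 and -0.072 in 319. In the AAV8-GFP mice it lay between -0.13 and 0.080, so 2 of the 4 AAV8-AGXT mice lay within the AAV8-GFP range. Without mouse 308 the median log2 fold change of the members was -0.12. This mouse also had the lowest share of read pairs counted on genes, 56.3%, against 63.3% to 69.1% in AAV8-GFP mice. Most of its cell type marker lists stood apart too, given here as median log2 deviations from the AAV8-GFP mean. Macrophage markers were at -1.83 (lowest of 8 mice for 8 of 10) and T and NK cell markers at -1.55 (7 of 9). Stellate cell and fibroblast markers were at -1.13 (8 of 10), cholangiocyte markers at -2.37 (6 of 8) and neutrophil markers at -1.76 (2 of 4). Hepatocyte markers were at 0.62 (highest of 8 mice for 6 of 9), erythroid markers at 1.42 (5 of 6) and endothelial markers at 0.42 (5 of 10). B and plasma cell markers were at -0.39 (lowest for 1 of 8), within the AAV8-GFP range of -0.60 to 0.46. The part of these cell types in the values of mouse 308 was not tested.

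Genes of neighbouring steps give the context. The mitosis list, 20 tested genes of spindle, condensation and division, had 11 genes that fell (55%) and none that rose, with a median log2 fold change of -1.48. For 15 of its genes (75%) every AAV8-AGXT mouse lay below every AAV8-GFP mouse. Over all genes tested these shares were 1.9% called lower and 7.63% below in every AAV8-AGXT mouse. Cdk1, the kinase that starts mitosis, fell by 1.72 on the log2 scale (SE 0.19, adjusted p = 0.00992), and Ube2c, a ubiquitin carrier of mitotic exit, fell by 2.21 (SE 0.29, adjusted p = 0.0193). The median deviation of the mitosis list lay between -2.07 and -1.06 in the AAV8-AGXT mice and between -0.37 and 0.36 in the AAV8-GFP mice. Among 35 other replication genes, 1 fell (2.86%) and none rose, with a median of -0.084. That gene was Cdc7, the kinase that fires origins, at 1.5 ± 0.234 and 0.582 ± 0.178 CPM (log2 fold change -1.38, SE 0.29, adjusted p = 0.0375). Of 28 genes of G1/S control, 1 fell and 1 rose (3.57% each, against 1.9% and 2.45% of all genes), with a median of -0.074. At an unadjusted p under 0.05, 7 of them (25%) were lower and 4 (14.3%) higher, against 12.6% and 13.5% of all genes. Cdkn1a, the cell-cycle inhibitor p21, fell from 142 ± 10.1 to 73.5 ± 20.3 CPM (-0.95, SE 0.19, adjusted p = 0.0349). Rbl2, a pocket protein of quiescent cells, rose from 13.1 ± 1.86 to 22.4 ± 1.41 CPM (0.77, SE 0.13, adjusted p = 0.0276). Of 13 other nucleotide genes, 1 rose (7.69%, against 2.45% of all genes) and none fell, and the median was -0.021. The gene that rose was Shmt1, a folate enzyme (0.59, SE 0.13, adjusted p = 0.0413). Each of the calls named here was lost in at least 1 fit that left out a mouse. The fits without 311, 314 or 319 called 2, 15 and 14 genes in all, against 290 lower and 374 higher with every mouse. When mice were left out in turn (8 fits), Cdk1 was called in 7, Ube2c and Rbl2 in 5, and Cdc7, Cdkn1a and Shmt1 in 2, with every direction kept. The highest adjusted p came without AAV8-GFP mouse 311 for each (0.0648 for Cdk1, 0.0947 for Ube2c, 0.115 for Rbl2, 0.141 for Cdc7, 0.126 for Cdkn1a and 0.146 for Shmt1). All but Cdk1 also lost the call without AAV8-GFP mouse 314 or AAV8-AGXT mouse 319, and Cdc7, Cdkn1a and Shmt1 without 303, 308 or 316. Cdc7 had as few as 8 counts in a mouse. No test of the difference between lists was made.

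**Figure D4:**
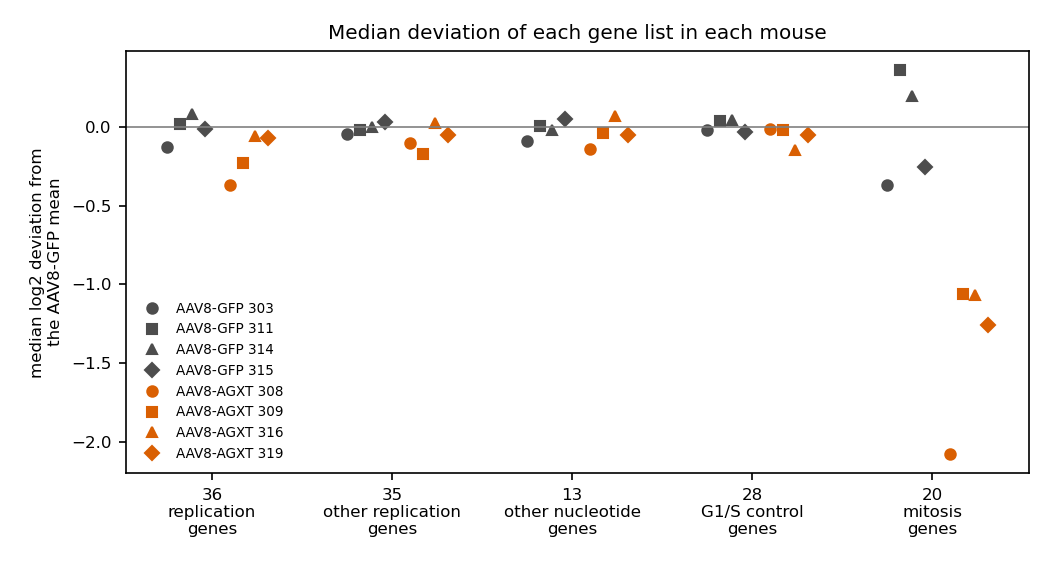
Median over each gene list of the log2 deviation from the AAV8-GFP mean (y axis), 1 point per mouse. For the 36 replication genes mice 316 and 319 lie within the AAV8-GFP range, and for the 20 mitosis genes all 4 AAV8-AGXT mice lie at -1.06 or below, with 308 lowest at -2.07.

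Ratios within a mouse set 5 pairs of a member and a partner gene against each other. Pcna to Mki67, the proliferation marker, had a log2 ratio of 1.73, 1.08, 1.61 and 1.80 in AAV8-GFP mice and 3.81, 2.73, 2.62 and 2.56 in AAV8-AGXT mice. The groups did not overlap and differed by 1.37. The exact permutation test over the 70 arrangements, two-sided, gave p = 0.0286, the smallest it can give, and 0.0714 adjusted over the 5 ratios. Mki67 belongs to the mitosis list, and Pcna alone differed by -0.17 (SE 0.12), so this difference lay mostly in Mki67. Rrm2 to Rrm2b, the reductase subunit of non-dividing cells, had a ratio of 0.40, 0.41, 0.61 and 1.33 against 0.097, -0.57, 0.39 and 0.025. These groups did not overlap either, at a difference of -0.70 (exact permutation p = 0.0286, adjusted 0.0714). Rrm2 to Rrm1 (-0.29, exact p = 0.371), Tk1 to the mitochondrial kinase Tk2 (0.12, exact p = 0.686) and Cdt1 to its inhibitor Gmnn (0.048, exact p = 0.83) overlapped between the groups. None of the 5 passed after adjustment.

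**Figure D5:**
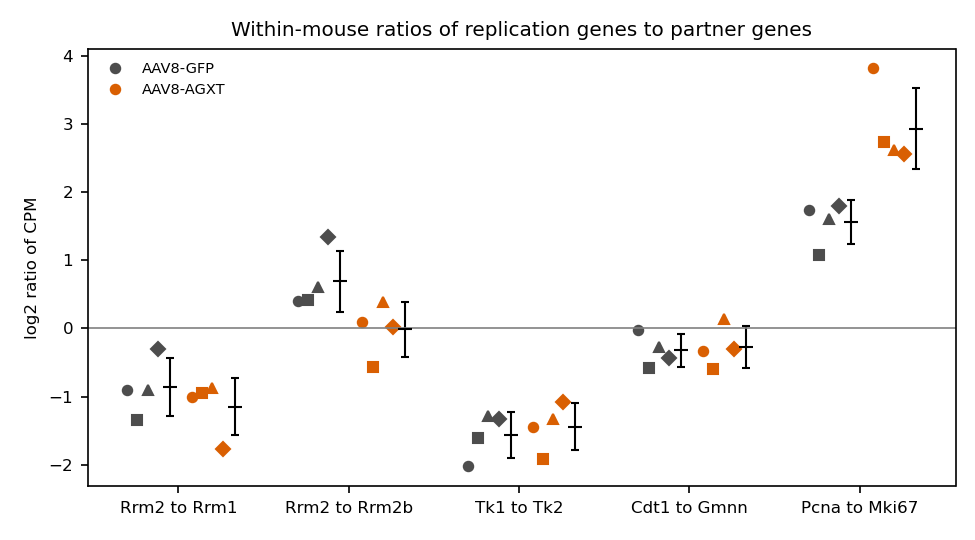
Log2 ratio of the CPM of a replication gene to that of a partner gene in each mouse (y axis) for 5 pairs, with the mean and SD (n = 4) beside each group. The AAV8-AGXT points for Pcna to Mki67 all lie above the AAV8-GFP points, those for Rrm2 to Rrm2b all lie below, and the other 3 pairs overlap.

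The cells that made these transcripts were not separated, and fewer cycling cells and less RNA per cell cannot be told apart in bulk liver. Markers of several other cell types had lower means in AAV8-AGXT livers, mostly without a call and with summed levels that overlapped between the groups. Over all genes tested, 1.9% were called lower and 2.45% higher, and 12.6% were lower and 13.5% higher at an unadjusted p under 0.05. Every AAV8-AGXT mouse lay below every AAV8-GFP mouse for 7.63%, and DESeq2 called 13% of the genes it tested. Counts near these shares say little about a cell type. Macrophage markers summed to between 731 and 1197 CPM in AAV8-GFP mice and between 303 and 933 CPM in AAV8-AGXT mice, with 0 of 10 called, a median log2 fold change of -0.62, and 4 lower and 1 higher at an unadjusted p under 0.05. The higher one was Timd4, a marker of resident Kupffer cells, at 0.881 and 5.0 CPM (log2 fold change 2.49, adjusted p = 0.0736). T and NK cell markers summed to between 13.9 and 26.2 CPM and between 6.14 and 16.4 CPM, with 0 of 9 called, a median of -0.93 and 5 lower at an unadjusted p under 0.05. Stellate cell and fibroblast markers summed to between 554 and 997 CPM and between 226 and 620 CPM, with 1 of 10 called (Acta2, a contractile actin, lower, a call lost when any 1 mouse was left out, with an adjusted p of up to 0.116 without 311), a median of -0.83, 8 lower at an unadjusted p under 0.05 and 5 with every AAV8-AGXT mouse below. Cholangiocyte markers summed to between 258 and 732 CPM and between 108 and 313 CPM, with 0 of 8 called, a median of -1.10 and 6 lower at an unadjusted p under 0.05. DESeq2 called 4, 4, 2 and 4 markers of these lists. Hepatocyte markers were higher in mean for 9 of 9, with 1 called (Cps1, the first enzyme of the urea cycle, lost without 303, 311, 314 or 319, adjusted p up to 0.117), 7 higher at an unadjusted p under 0.05 and 4 called by DESeq2. Endothelial markers had a median of 0.18 with 0 of 10 called, none at an unadjusted p under 0.05 and none by DESeq2, and B and plasma cell markers a median of -0.43 with 0 of 8 called, 1 at an unadjusted p under 0.05 and 1 by DESeq2. Neutrophil markers had 4 of 8 with enough reads, a median of -0.84, 4 of 4 lower in mean and 0 called, 1 at an unadjusted p under 0.05 and 1 by DESeq2, and Ly6g, which defines the cell, was at 0 in 7 mice. Erythroid markers were higher in mean for 6 of 6, with 1 called (Klf1, an erythroid transcription factor, called only without 309 among the fits that left out 1 mouse, adjusted p up to 0.161), 3 higher at an unadjusted p under 0.05 and 2 called by DESeq2. The part of these cell types in the values of the replication genes was not tested.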

How the data were processed

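Liver mRNA of 8 mice was sequenced as stranded libraries, 1 per mouse. The authors trimmed reads with Trimmomatic 0.35, aligned them with HISAT2 2.1.0.13 to GRCm38 and counted genes with HTSeq, and the deposited values are raw counts. The strand option is not stated in the sources used here, and 11 members share exonic bases with a gene on the other strand. Symbols and exon lengths (all annotated exons of a gene merged) came from GENCODE M21 and start windows from RefSeq (GRCm38.p6). Counts were tested with edgeR 4.0.16 in R 4.3.3 (filterByExpr, TMM, quasi-likelihood, treatment as the only term, Benjamini-Hochberg adjustment). Log2 CPM used a prior count of 2, and the common biological coefficient of variation was 23.3%. Alternatives were DESeq2 1.42.0, limma-voom (limma 3.58.1), robust estimation, 3 other scalings, 2 other filters, a prior count of 0.5 and leaving out each mouse. Named in full are called members, the member with the smallest p in each role and that with the largest p; other lists name at most 4 genes. Mcm2, Gins4, Rpa1, Pcna and the neighbours of Mcm10 were added after values were seen. Members, lists and tests were chosen with earlier results of these data known. P-values judge the difference between the groups against the variation between mice.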

Additional observations from a re-analysis of the deposited data

Results flagged for a closer look

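In 6 of 72 sets of 4 mice (36 members in 2 groups), 1 mouse stood apart from the other 3 by more than Dixon's limit for 4 values, where chance alone gives about 1 in 20 sets, or 3.6. In AAV8-GFP mouse 303, Mcm5 was 1.72 CPM against 3.67 to 4.06 in the others, and Uhrf1 was 1.29 CPM against 2.45 to 2.65. In AAV8-GFP mouse 311, Cdc6 was 0.765 CPM against 0.430 to 0.461, and Rpa2 was 5.45 CPM against 6.31 to 6.48. In AAV8-AGXT mouse 308, Gins4 was 20.4 CPM against 15.5 to 16.0, and Pola1 was 0.483 CPM against 2.05 to 2.34. Without mouse 303 the log2 fold change of Uhrf1 was -1.65 (adjusted p = 0.0717), and without mouse 308 that of Pola1 was 0.14.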

How the results depend on the processing

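The 2 calls did not hold in every fit that left out 1 mouse, although both directions did. Leaving out 1 mouse at a time gave 0 members called lower in all 8 fits and 0 to 1 called higher, and those fits called between 2 and 643 genes in all. Members called lower numbered 2 with total counts, 2 with at least 10 counts in every mouse and 3 with DESeq2, and Mcm10 stayed the only member called higher in all the alternatives that kept every mouse. With total counts the median log2 fold change of the members was -0.39, against -0.22 over all genes. Under that scaling 15 members lay below in every AAV8-AGXT mouse and 1 above, and the share over all genes was not counted. Mcm7 (-0.22), Cdt1 (-0.024), Gins4 (-0.0063), Rfc1 (-0.050), Rfc2 (-0.16), Rfc5 (-0.23) and Pole (-0.030) turned negative with total counts. Mcm7 and Rfc5 also turned with upper-quartile scaling (-0.047 and -0.048), without a filter (-0.0044 and -0.0050) and with at least 10 counts in every mouse (-0.022 and -0.023). The cause was not tested beyond the shift of all genes by total counts. Leaving out 1 mouse at a time moved these log2 fold changes across 0: Mcm4 -0.13 to 0.0046, Mcm7 -0.020 to 0.042, Cdc6 -0.34 to 0.059, Cdt1 -0.089 to 0.37, Gins3 -0.28 to 0.055, Rfc2 -0.055 to 0.18, Rfc4 -0.23 to 0.073, Rfc5 -0.12 to 0.11, Pola1 -0.29 to 0.14 and Chaf1a -0.47 to 0.12. The E2F-type share fell to 30% in the 200 bases before the start, against 2.23% of all genes. No paired analysis was possible because the groups hold different animals and the labels give no pairing. With 3 mice against 4 the exact test of the ratios cannot reach 0.05. Counts under 10 in some mice limit Cdc6, Gins2, Pola1, Chaf1a and Uhrf1.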
